A study of Homo sapiens with 35 samples.

Results

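ATRA plus VPA was compared with DMSO after 6 h in BE(2)-C cells across all 11940 genes measured. The comparison rested on the 3 arrays whose titles name the 5 uM ATRA plus 1 mM VPA treatment at 6 h and on the 3 DMSO arrays of that time, which are 6 of the 35 arrays of the series. BE(2)-C is an established human neuroblastoma line, a single line, and all groups are bulk RNA of that line. The series treated it with all-trans retinoic acid (ATRA, 5 uM) plus valproic acid (VPA, 1 mM), with ATRA alone, with VPA alone or with DMSO, the vehicle, and collected cells after 6, 24 and 72 h for Affymetrix arrays. Its title gives a signature of differentiation as the aim. Each group at 6 h held 3 arrays. The labels speak of triplicates and do not say whether these were separate cultures. Each p-value rests on the spread of a gene within groups, pooled over all 35 arrays in 12 groups. That spread may be technical.

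Retinoic acid enters the nucleus and binds receptors (RARs) that sit on DNA as dimers with RXRs; binding exchanges corepressors, which carry histone deacetylases, for coactivators, which carry acetyltransferases. Genes of retinoid clearance such as CYP26A1 are classical targets of these receptors, and neuroblastoma cells given retinoic acid in culture stop dividing and grow neurites. Valproic acid is a branched fatty acid used against epilepsy that inhibits class I histone deacetylases, so that acetyl groups stay on histones.

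The values were intensities on a linear scale, and a change is given as the log2 ratio of intensity plus 1. Errors are standard errors (SE) of that change from limma's fit, and p-values are limma's, adjusted by the Benjamini-Hochberg method over the 11940 genes. A gene is said to rise or fall where the adjusted p lay below 0.05. Median intensity ran from 55.9 to 58.9 over the 6 arrays, and the lower quartile of an array ran from 20.8 to 21.4. The arrays carry no detection calls, so values near that level may be background, and the number of arrays limits the precision. ATRA plus VPA replicate 1 stood apart: the log2 ratio of 3' to 5' control probe signal, a sign of RNA and labelling quality, was 0.91 there and 0.19 and 0.06 in the other ATRA plus VPA arrays, against 0.21, 0.38 and 0.23 in the DMSO arrays. That array held 56 genes at least 1 log2 unit below the other arrays of its group. Of these 0 were among the rises and 1 was among the falls, against 6.73% and 4.87% of all genes. So low a value lowers the group mean and widens the spread, so these genes could hardly be called as rises. The counts therefore do not show that the array left the calls unaffected.

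Defining markers matched the label of a sympathetic neuroblastoma line. Of 11 measured sympathetic markers 10 had a group mean above 100, and their summed intensity ran from 31589 to 33277 in ATRA plus VPA arrays, against 36154 to 37126 in DMSO arrays. HAND2 was the exception, with a mean of 31.7 in ATRA plus VPA and 40.9 in DMSO arrays. Among the 11 markers 1 rose, PHOX2A, and 3 fell, GATA3, ISL1 and MYCN, against 6.73% and 4.87% of all genes. The others did not pass, so the lower sum was not a fall of all markers. All 4 measured Schwann and glial markers and all 5 measured haematopoietic markers had means of at most 50 in both groups, and KRT19 was the only epithelial marker above that, with 124 in ATRA plus VPA and 107 in DMSO arrays. Of 6 mesenchymal markers 2 were above 100 in both groups: TWIST1 averaged 998 and PDGFRB 184 with ATRA plus VPA, against 887 and 158 with DMSO. Of 3 melanocytic markers MITF, a factor of melanocytes and neural crest cells, averaged 148 with ATRA plus VPA and 96.9 with DMSO. It rose by 0.61 (limma adjusted p = 0.027). TYR and PMEL averaged 18.8 and 18.6 with ATRA plus VPA, against 19.8 and 18.8 with DMSO. Both lay below the lower quartile and did not pass. In bulk RNA fewer cells of a type and less RNA per cell cannot be told apart.

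After 6 h of ATRA plus VPA, 804 genes rose and 581 fell, together 11.6% of the genes tested (6.73% rose and 4.87% fell). The changes were mostly small: 86 genes rose and 17 fell by at least 2-fold, and the median log2 change over all genes was -0.002. All 3 ATRA plus VPA arrays lay above all 3 DMSO arrays for 14.6% of the genes and below them for 14%. Without ATRA plus VPA replicate 1 there were 574 rises and 560 falls, so fewer rises and a nearly equal number of falls. The plot of change against level shows that the large rises were spread over genes of low to middle intensity, while CRABP2 and RET stood out among bright genes.

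**Figure D1:**
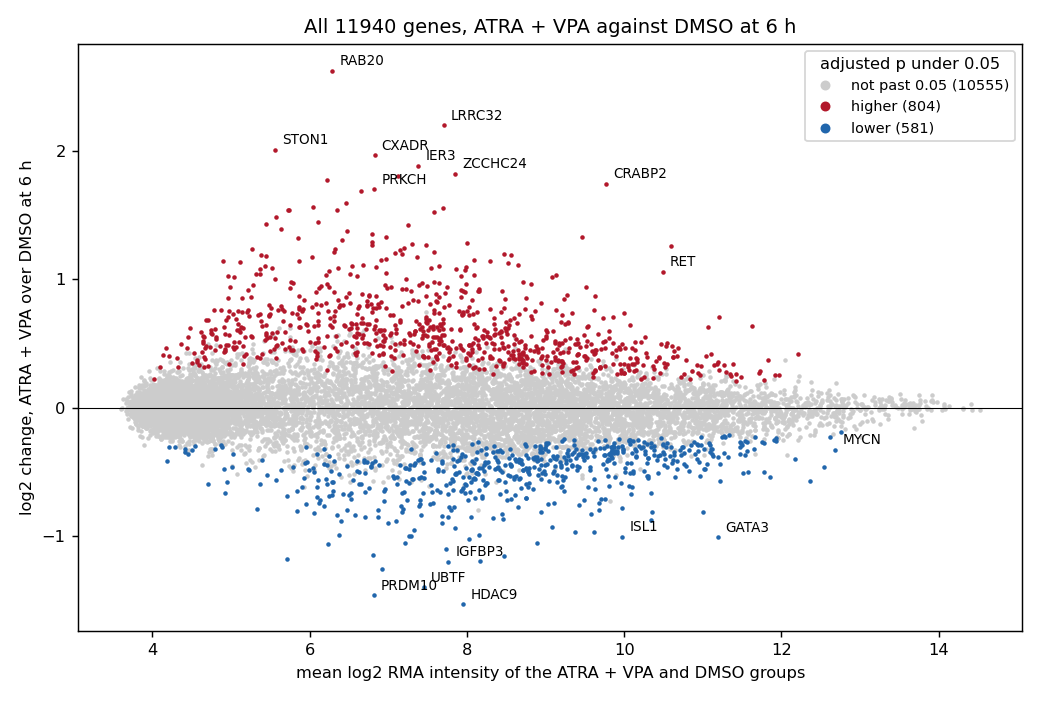
Log2 change of ATRA plus VPA over DMSO at 6 h (vertical axis) against the mean log2 RMA intensity of both groups (horizontal axis); each point is 1 of 11940 genes. Red points are the 804 genes that rose and blue points the 581 that fell at an adjusted p below 0.05; RAB20 reached 2.62 and HDAC9 -1.53.

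RAB20, a small GTPase of membrane traffic, showed the largest rise. Its intensities were 236, 169.9 and 187 in ATRA plus VPA arrays, against 27.2, 32.9 and 32.9 in DMSO arrays, a log2 change of 2.62 (SE 0.16, limma adjusted p = 5.3e-12). The groups were far apart, and groups that do not overlap were a condition for choosing the largest rises. Each agent alone raised the gene to an intermediate level, a mean of 80.3 with ATRA (limma adjusted p = 2.7e-06) and 74.8 with VPA (limma adjusted p = 3.2e-06). LRRC32, which anchors latent TGF-beta at the cell surface, had 390, 486 and 470.1 in ATRA plus VPA arrays, against 90.8, 111 and 88.5 in DMSO arrays (log2 2.20, SE 0.20, adjusted p = 6.1e-09). IER3, an immediate early gene that ERK phosphorylates, had 338, 284 and 339 in ATRA plus VPA arrays, against 77.5, 79.9 and 102 in DMSO arrays (log2 1.88, SE 0.14, adjusted p = 1.3e-10). Neither gene's groups overlapped, which that choice required. Both genes also passed against ATRA alone, with means of 256 for LRRC32 and 199 for IER3, and against VPA alone, with means of 170.5 and 158.

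CXADR, the coxsackievirus and adenovirus receptor and a cell adhesion protein, had 263, 223 and 191 in ATRA plus VPA arrays, against 60.3, 64.3 and 46.4 in DMSO arrays (log2 1.97, SE 0.14, adjusted p = 1.3e-10). All treated arrays lay above all DMSO arrays, which the choice of the largest rises required. ATRA alone averaged 42.1 and VPA alone 289, and the difference between both agents and VPA alone did not pass (adjusted p = 0.61). STON1, an adaptor-like protein of endocytosis, had 113, 94.7 and 79.7 in ATRA plus VPA arrays, against 27.5, 19.9 and 21.7 in DMSO arrays, which are at the level of the lower quartile (log2 2.01, SE 0.21, adjusted p = 9.1e-08). ZCCHC24, a zinc finger protein, had 616, 365 and 344 in ATRA plus VPA arrays, against 118, 138 and 106 in DMSO arrays (log2 1.82, SE 0.16, adjusted p = 3.6e-09). VPA alone gave means of 88.3 for STON1 and 460.1 for ZCCHC24, and neither passed a test between both agents and VPA alone. PPP1R26, a regulatory subunit of protein phosphatase 1, rose by 1.59, ZDHHC11, a palmitoyltransferase, by 1.80, and CORO1A, an actin-binding coronin, by 1.56.

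CRABP2, a binding protein that hands retinoic acid to its receptor, was the brightest of the 14 largest rises. It had 1576, 1592 and 1601 in ATRA plus VPA arrays, against 531, 466 and 429.9 in DMSO arrays, a log2 change of 1.74 (SE 0.17, adjusted p = 2.2e-08). The treated arrays lay close together and well above the DMSO arrays, where the choice of the largest rises required no overlap. TMC6, a transmembrane protein of the endoplasmic reticulum, rose by 1.77, ARHGEF3, an exchange factor for RhoA, by 1.69, and AQP3, a water and glycerol channel, by 1.56. For AQP3 the other probe sets of the gene showed smaller changes of 0.30 and 0.56, whereas the second TMC6 probe set gave 1.82. The change of STON1 depended on its probe set too, since the second one stood at 0.08.

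**Figure D2:**
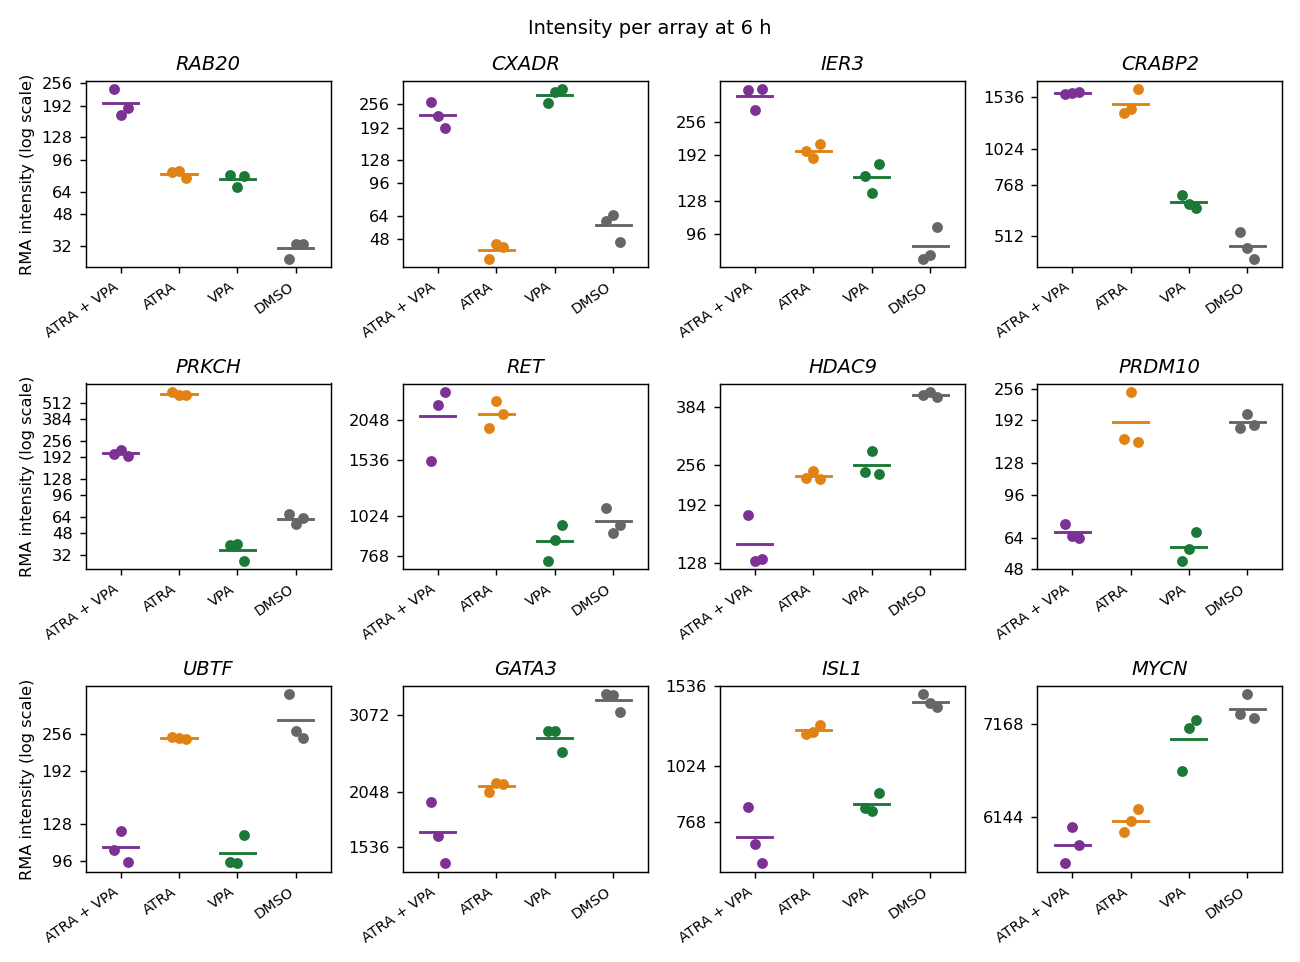
RMA intensity (log axis) of 12 genes on each 6 h array, with ATRA plus VPA, ATRA, VPA and DMSO from left to right; points are arrays, 3 a group, and bars are group means. RAB20 and IER3 were highest with both agents, PRKCH was highest with ATRA alone, CXADR followed VPA, and HDAC9 was lowest with both agents.

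HDAC9, a class IIa histone deacetylase, showed the largest fall. It had 179, 129.6 and 131 in ATRA plus VPA arrays, against 419, 428 and 414 in DMSO arrays, and fell by 1.53 on the log2 scale (SE 0.11, adjusted p = 1.2e-10). Its arrays did not overlap, which the choice of the largest falls required. Each agent alone left a level in between, a mean of 236 with ATRA and 255 with VPA. PRDM10, a zinc finger transcription factor of the PRDM family, had 73.1, 65.6 and 64.3 in ATRA plus VPA arrays, against 179, 202 and 183 in DMSO arrays (log2 -1.46, SE 0.14, adjusted p = 2.4e-08). UBTF, the factor that opens ribosomal DNA for RNA polymerase I, had 105, 121 and 95.5 in ATRA plus VPA arrays, against 348, 261 and 249 in DMSO arrays (log2 -1.40, SE 0.20, adjusted p = 6e-06). For both genes all treated arrays lay far below all DMSO arrays, where the choice of the largest falls required no overlap. The ATRA-only means, 188 for PRDM10 and 248 for UBTF, lay near the DMSO level. The second probe set of UBTF gave -1.04 and that of PRDM10, which is near background, -0.28.

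The other largest falls were of genes with varied roles. MEPCE, the capping enzyme of the 7SK RNA that restrains P-TEFb, fell by 1.20, and PATZ1, a BTB zinc finger factor, by 1.10. WARS2, the mitochondrial tryptophan-tRNA synthetase, fell by 1.06. TAF6L, a subunit of acetyltransferase complexes, fell by 1.18 on its brightest probe set, while the other 5 ran from -0.33 to 0.09. IGFBP3, a binding protein for insulin-like growth factors, fell by 1.20, and DEPTOR, an inhibitor of mTOR, by 1.06. LRRTM2, a synaptic adhesion protein, fell by 1.15, AP5S1, a subunit of the AP-5 adaptor, by 1.26, LANCL2 by 1.16, PBLD by 1.05 and UBXN8 by 1.02. The largest limma adjusted p among these was 0.00024, for TAF6L. All 28 of the largest rises and falls kept their direction and their call under each of 17 other settings of the analysis. They were chosen as large calls on the same arrays, so kept calls are no independent support. Sizes did move, and TAF6L stood at -0.29 in the setting where its fall was smallest.

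Promoter sequence was set beside these changes as a description. The windows came from RefSeq (GRCh38.p14) and ran from 250 bases before to 50 bases after each gene's start; 9592 of the genes tested had one. A retinoic acid response element of the DR5 or DR2 kind, read on both strands, was in 0 of 663 windows of genes that rose, 1 of 490 of genes that fell and 34 of all 27305 windows (0.125%). The GC box GGGCGG, read on both strands and searched for after the values were seen, was in 78.1% of windows of genes that rose, 64.5% of those that fell and 61.8% of those not called, against 44.6% of all windows. Mean GC content was 67.2% in the windows of genes that rose, 62.7% in those that fell and 62.2% in those not called, and the part of base composition in the share with the motif was not tested. The 250 bases before the start are shown for RET, which rose, and for UBTF and HDAC9, which fell, to set a gene with several boxes in either direction beside one with 0; these genes were chosen after their values were seen. Capitals mark GC boxes, some of which overlap. RET lies on the plus strand at chr10:43076819-43077068 with 5 boxes, UBTF on the minus strand at chr17:44220883-44221132 with 7, and HDAC9 on the plus strand at chr7:18495499-18495748.
RET: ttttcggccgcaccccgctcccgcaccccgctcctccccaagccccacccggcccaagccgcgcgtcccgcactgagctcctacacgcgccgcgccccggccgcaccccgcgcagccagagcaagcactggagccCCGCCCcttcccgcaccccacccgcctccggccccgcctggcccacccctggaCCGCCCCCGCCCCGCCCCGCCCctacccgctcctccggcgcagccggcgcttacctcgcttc
UBTF: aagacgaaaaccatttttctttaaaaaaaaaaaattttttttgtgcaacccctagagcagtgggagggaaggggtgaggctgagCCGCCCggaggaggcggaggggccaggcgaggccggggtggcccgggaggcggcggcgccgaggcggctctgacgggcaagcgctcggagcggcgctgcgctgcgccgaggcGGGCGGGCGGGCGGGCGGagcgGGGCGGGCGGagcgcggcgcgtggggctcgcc
HDAC9: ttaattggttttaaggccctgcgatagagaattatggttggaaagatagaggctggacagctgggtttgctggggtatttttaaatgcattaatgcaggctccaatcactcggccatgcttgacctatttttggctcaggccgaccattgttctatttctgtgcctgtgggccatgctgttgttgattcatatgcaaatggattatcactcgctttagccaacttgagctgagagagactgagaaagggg

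Counts over gene lists are read against the shares of all genes, 6.73% that rose and 4.87% that fell, and against the median of -0.002. A list with shares near these was called about as often as any gene. The lists and their members were chosen with earlier results of these data known, so a share above these may be partly built in. Of 16 measured genes of retinoid transport and metabolism 2 rose, CRABP2 and CYP26A1, and 0 fell. CYP26A1, which degrades retinoic acid, had 32.4, 35.2 and 36.2 in ATRA plus VPA arrays, against 24.4, 22.1 and 20.4 in DMSO arrays (log2 0.61, SE 0.17, adjusted p = 0.016). The groups did not overlap, but these levels are close to the lower quartile, and the call was lost with a pseudocount of 32 and without DMSO replicate 3, ATRA plus VPA replicate 2 or ATRA plus VPA replicate 3. CYP26B1 changed by 0.26 (adjusted p = 0.28), DHRS3, a retinal reductase, by 0.10 (adjusted p = 0.86) and TTR, a carrier of retinol in blood, by 0.21 (adjusted p = 0.21); none of these passed. The list held 1 rise when any 1 of those 3 arrays was left out.

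Of 18 measured retinoid receptors and coregulators 3 rose, against 6.73% of all genes, and 1 fell, which is near the 4.87% of all genes. NR2F1, an orphan nuclear receptor, rose by 0.63, and PPARD, a fatty acid receptor that can bind retinoic acid, by 0.52. RARA, the receptor alpha, had 335, 292 and 277 in ATRA plus VPA arrays, against 245, 259 and 224 in DMSO arrays (log2 0.31, adjusted p = 0.03), a small rise that was lost under 8 of 17 other settings, among them without DMSO replicate 1 or 3 or ATRA plus VPA replicate 1 or 2. RARB, a direct target of its own receptor class, had 16.6, 19.3 and 16.6 in ATRA plus VPA arrays, against 17.1, 16.4 and 18.3 in DMSO arrays, all below the lower quartile (log2 0.02, adjusted p = 0.96). MED1, a mediator subunit that binds nuclear receptors, fell by 0.57, which was not called without DMSO replicate 1 or ATRA plus VPA replicate 1 and was joined by 1 more fall without DMSO replicate 2 or DMSO 24 h replicate 1. TBL1XR1, a corepressor subunit, changed by -0.41 (adjusted p = 0.37).

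Of 31 measured genes reported as retinoic acid targets outside metabolism 13 rose and 1 fell, against 6.73% and 4.87% of all genes, with a median log2 change of 0.12 against -0.002. This list too was chosen with earlier results of these data known. The fall was not called without DMSO replicate 2 or ATRA plus VPA replicate 3, and 2 falls were called without ATRA plus VPA replicate 1. PRKCH, protein kinase C eta, had 203, 217 and 195 in ATRA plus VPA arrays, against 67.9, 56.6 and 62.9 in DMSO arrays (log2 1.70, SE 0.13, adjusted p = 3.9e-10). RET, the receptor tyrosine kinase for GDNF family ligands, had 1521, 2276 and 2501 in ATRA plus VPA arrays, against 1088, 909 and 965 in DMSO arrays (log2 1.06, SE 0.14, adjusted p = 5e-06). In both genes the groups were clearly separate, which the choice of the largest rises required for PRKCH. For RET replicate 1 was the lowest treated array. CLMN, a calponin-like membrane protein, rose by 1.49, PTPRH, a receptor tyrosine phosphatase, by 1.45, and EGR1, an immediate early transcription factor, by 1.19. HTR2B, a serotonin receptor, rose by 0.68 and TGM2, transglutaminase 2, by 0.73. The mean over probe sets gave 0.85 for CLMN and 0.23 for TGM2, whose other probe sets ran from -0.07 to 0.20. Dimmer second probe sets gave 0.86 for PRKCH, 0.94 for RET and 0.41 for EGR1. Of 25 measured HOX genes, which retinoic acid orders along the body axis, 3 rose and 1 fell, against 6.73% and 4.87% of all genes, with a median of 0.03. HOXD1 rose by 0.61 and HOXC13 by 0.57, HOXC8 fell by 0.45, and HOXD13 changed by 0.39 (adjusted p = 0.051). HOXD13 passed by limma under 8 of 16 other settings, among them the mean of its probe sets, at 0.60 (adjusted p = 0.00012). Its means, 26.8 with ATRA plus VPA and 20.2 with DMSO, were near the lower quartile. HOXD1 lost its call with the mean of its probe sets and HOXC13 without DMSO replicate 2. HOXC8 lost it without DMSO replicate 1 or 3 or ATRA plus VPA replicate 1 or 2, with the replicate block and with the trended and robust prior.

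The deacetylases themselves changed in 1 of 15 measured genes, HDAC9, a share below the 11.6% of all genes that changed. HDAC1, a target of VPA, had 1340, 1292 and 1238 in ATRA plus VPA arrays, against 1161, 1301 and 1135 in DMSO arrays (log2 0.11, adjusted p = 0.67). HDAC2 had 2052, 2030 and 1936 in ATRA plus VPA arrays, against 1918, 1937 and 1847 in DMSO arrays (log2 0.08, adjusted p = 0.62). Both genes' groups overlapped. HDAC3 changed by 0.25 (adjusted p = 0.12), and passed without DMSO replicate 3, at 0.35 (adjusted p = 0.032). Of 18 subunits of deacetylase complexes 3 rose and 1 fell, against 6.73% and 4.87% of all genes. ING2 rose by 0.39, ARID4B by 0.36, and RCOR1, the CoREST scaffold, fell by 0.38. Without DMSO replicate 3 or ATRA plus VPA replicate 2, where ARID4B was lost, 1 rise was left.

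Of 20 measured histone acetyltransferases and acetyl readers 5 fell and 0 rose, against 4.87% and 6.73% of all genes, with a median of -0.12 against -0.002. KAT5, the TIP60 acetyltransferase, had 149.6, 150.3 and 149 in ATRA plus VPA arrays, against 283, 275 and 283 in DMSO arrays (log2 -0.90, SE 0.18, adjusted p = 0.00074). CREBBP fell by 0.57 and EP300, its paralogue and fellow coactivator of nuclear receptors, by 0.42; KAT7 fell by 0.44. A second, dim CREBBP probe set gave -0.10. The mean over probe sets gave -0.34 for CREBBP. Leaving out DMSO replicate 2 or 3 left 3 falls in this list, and 1 rise was called without DMSO replicate 1. KAT7 was lost without DMSO replicate 2 or 3 or ATRA plus VPA replicate 1 or 2. Among 38 histone methyltransferases, demethylases and Polycomb genes 8 rose and 5 fell, against 6.73% and 4.87% of all genes. The rises were 4 without ATRA plus VPA replicate 1 and 5 without DMSO replicate 1 or 3 or ATRA plus VPA replicate 2. KDM5B, a demethylase of histone H3 lysine 4, had 377, 425 and 397 in ATRA plus VPA arrays, against 176, 155 and 161 in DMSO arrays (log2 1.28, adjusted p = 1.1e-07). KDM4C rose by 0.66, whereas SUV39H1, a methyltransferase of lysine 9, fell by 0.82. Of 57 histone genes 0 rose and 2 fell, H2AX by 0.26 and H2BC21 by 0.38, and 1 fall was called when any 1 of the DMSO arrays or ATRA plus VPA replicate 2 or 3 was left out; both calls were also lost with the compared arrays alone. Per the labels the RNA was primed with oligo-dT, and most replication histone transcripts carry no poly(A) tail.

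Of 29 genes reported to respond to deacetylase inhibitors 7 rose, against 6.73% of all genes, and 2 fell, a share near the 4.87% of all genes, with a median of 0.03. The rises were 3 without ATRA plus VPA replicate 1 and 4 without DMSO replicate 1, and 1 fall was left without DMSO replicate 2 or 3 or ATRA plus VPA replicate 1 or 3. CDKN1A, the p21 inhibitor of cyclin-dependent kinases, had 247, 219.5 and 194 in ATRA plus VPA arrays, against 154, 129 and 92.7 in DMSO arrays (log2 0.83, SE 0.22, adjusted p = 0.011). The groups did not overlap, but the call was lost without DMSO replicate 3 or ATRA plus VPA replicate 1. KLF2, a zinc finger factor, rose by 0.69, and CTPS1, which makes CTP, fell by 0.52.

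The arrays with both agents were next compared with those of each agent alone. Against ATRA alone, ATRA plus VPA raised 851 genes and lowered 578, 12% of those tested. Against VPA alone it raised 54 and lowered 14, 0.57% of those tested. These comparisons share the ATRA plus VPA arrays, and those of each agent with DMSO share the DMSO arrays, so their values are given side by side. VPA alone against DMSO gave 771 rises (6.46%) and 561 falls (4.7%), 11.2% of genes, and ATRA alone 123 rises (1.03%) and 70 falls (0.586%), 1.62%; the ATRA count fell to 109 without DMSO replicate 2, to 120 without DMSO replicate 3 and to between 121 and 123 without any 1 of the ATRA arrays.

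The effect of ATRA could be measured in the presence and in the absence of VPA on arrays that are not shared. Of the 54 genes higher with both agents than with VPA alone, 51 also rose with ATRA alone over DMSO, 94.4% of that list and 41.5% of the 123 rises with ATRA alone. For falls 7 genes were shared, 50% of 14 and 10% of 70, and 0 genes were called in opposite directions. Across all genes Pearson's r between these changes was 0.50, as a description over genes, which are not independent replicates. The effect of VPA compared in the same manner shared 574 rises, 67.5% of 851 with ATRA present and 74.4% of 771 without it, and 366 falls, 63.3% and 65.2%, with r = 0.82.

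**Figure D3:**
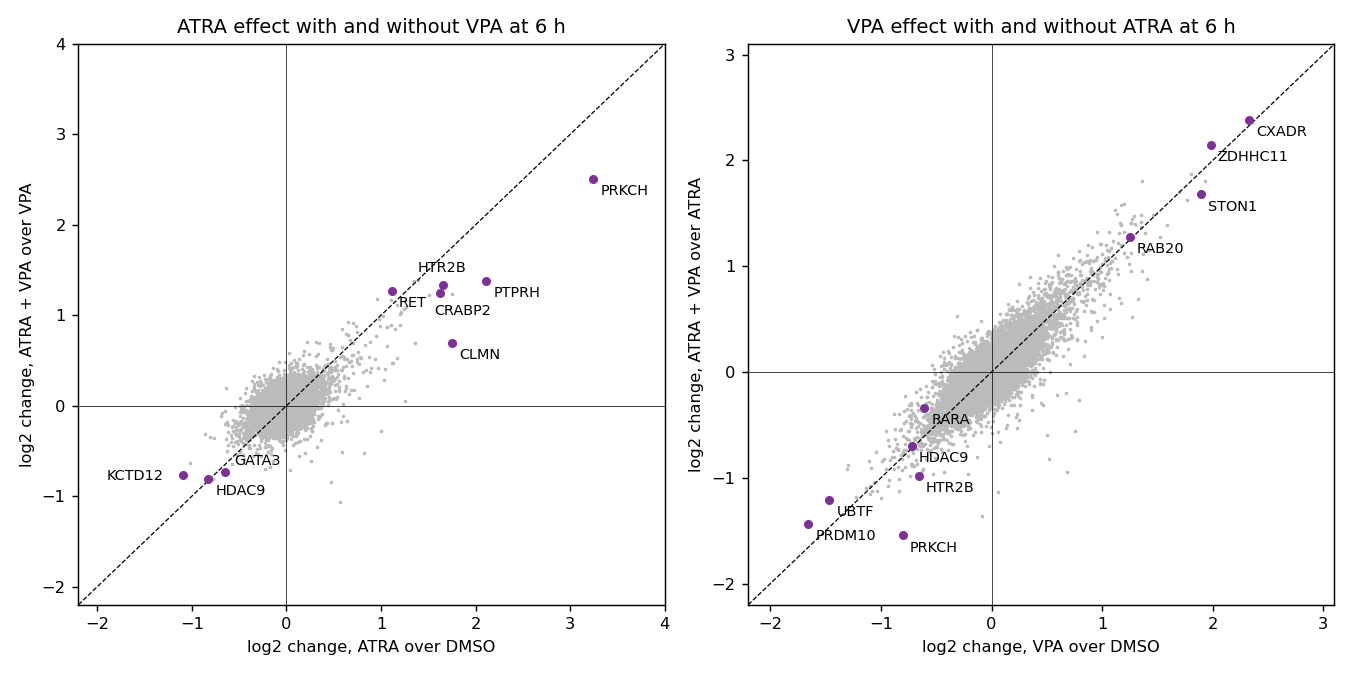
Left: log2 change of ATRA plus VPA over VPA (vertical) against ATRA over DMSO (horizontal) at 6 h. Right: log2 change of ATRA plus VPA over ATRA (vertical) against VPA over DMSO (horizontal); points are 11940 genes, named genes are purple and the dashed line marks equal change. PRKCH lies far right of the other genes on the left with 2.50 in the presence of VPA and 3.25 for ATRA alone.

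PRKCH was the gene with the largest response to ATRA alone. For PRKCH the arrays read 203, 217 and 195 with ATRA plus VPA, 622, 591 and 584 with ATRA alone, 38.7, 39.2 and 28.9 with VPA alone and 67.9, 56.6 and 62.9 with DMSO. Both agents together gave less than ATRA alone (log2 -1.54, adjusted p = 3e-09) and more than VPA alone (log2 2.50, adjusted p = 1.6e-13), and VPA alone lay below DMSO (log2 -0.80, adjusted p = 8.8e-05). HTR2B had the same order, with means of 101 for ATRA plus VPA, 198 for ATRA, 38.9 for VPA and 62.1 for DMSO, and it fell by 0.98 against ATRA alone. PTPRH fell by 0.67 and RARA by 0.34 against ATRA alone, and both lost that call without ATRA replicate 2 or ATRA plus VPA replicate 2 or 3, with log2 differences of -0.61, -0.61 and -0.57 for PTPRH and -0.30, -0.32 and -0.28 for RARA. Of the 31 reported retinoic acid targets 1 was higher and 5 were lower with both agents than with ATRA alone, against 7.13% and 4.84% of all genes, and 9 were higher than with VPA alone, against 0.452%.

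CXADR exceeded ATRA alone by 2.39 (SE 0.14, adjusted p = 3.7e-12) and did not pass against VPA alone, with a difference of -0.37 (95% interval -0.66 to -0.07). The other largest rises over ATRA alone were ZDHHC11 (2.15), PPP1R26 (1.88), SLITRK5, a synaptic adhesion protein (1.81), ZCCHC24 (1.80) and STC2, a secreted glycoprotein (1.70). PRDM10, UBTF, PBLD and LANCL2 were among the largest falls against ATRA alone, by 1.43, 1.21, 1.20 and 1.19. AKAP5, an anchor protein of kinase A, passed as well, at -1.36, with the widest spread of these genes: 26.9, 104 and 38.6 in ATRA plus VPA arrays, against 113, 144 and 118 in ATRA arrays. One ATRA plus VPA array lay near the ATRA level, and the call was lost without ATRA replicate 2 or 3 or ATRA plus VPA replicate 1 or 3, with log2 differences from -1.40 to -0.96.

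Against VPA alone the largest rises were PRKCH (2.50), LRRC32 (1.39), RAB20 (1.38), PTPRH (1.38), HTR2B (1.33) and RET (1.27). The largest falls were HDAC9 (-0.81), ARC, an immediate early synaptic gene (-0.80), KCTD12 (-0.76), GATA3 (-0.73), EFNA3 (-0.71) and GPRC5C (-0.69). ARC had 74.5, 67.4 and 58.1 in ATRA plus VPA arrays, 39.9, 41.0 and 41.5 in ATRA arrays, 135, 100.4 and 117 in VPA arrays and 70.8, 74.8 and 66.5 in DMSO arrays. Its level with both agents was close to that with DMSO, between a higher one with VPA and a lower one with ATRA. The calls of ARC, EFNA3 and GPRC5C rested on single arrays: ARC was lost without ATRA plus VPA replicate 2 or 3 or VPA replicate 1 or 3, EFNA3 without ATRA plus VPA replicate 1 or 2 or any 1 VPA array, and GPRC5C without ATRA plus VPA replicate 3 or VPA replicate 1 (adjusted p between 0.051 and 0.42).

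Whether the agents combined other than additively on the log2 scale was tested by the ATRA by VPA interaction, the combined change minus both single changes. By limma 0 genes passed, 0% of those tested, and 282 had an unadjusted p below 0.05, which is 2.36%; the fit of the 6 h arrays alone, chosen after seeing the data, also gave 0, with 538 at the unadjusted threshold. The median 95% interval spanned 0.34 on either side, and larger departures than that, such as the one of PRKCH, did not pass the adjusted test. For RAB20 the interaction was 0.03 (95% interval -0.45 to 0.50), for HDAC9 0.02 (-0.30 to 0.34) and for IER3 -0.18 (-0.58 to 0.22). For PRKCH it was -0.74 (-1.13 to -0.35, adjusted p = 1); with a pseudocount of 32 in place of 1 it passed, at -0.93 (adjusted p = 0.0047). A missed threshold does not show that the agents add.

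Of 20 inhibitors of cyclin-dependent kinases and growth arrest genes 6 rose and 2 fell, against 6.73% and 4.87% of all genes. Their median was 0.16. CDKN2D, the p19 inhibitor, had 166, 175 and 177 in ATRA plus VPA arrays, against 62.6, 62.6 and 86.8 in DMSO arrays (log2 1.29, SE 0.22, adjusted p = 0.00013), or 0.67 as the mean over its probe sets. CCNG2, an atypical cyclin of arrested cells, rose by 0.63 and GAS1 by 0.55, the second lost without DMSO replicate 2 or ATRA plus VPA replicate 2 and at 0.28 with the mean over probe sets. The falls were 1 without any 1 DMSO array or ATRA plus VPA replicate 1 or 3. Of 22 G1 cyclins, kinases and E2F genes 4 rose and 0 fell, against the same shares of all genes. CCNE1, cyclin E1, which drives entry into S phase, had 412, 374 and 329.5 in ATRA plus VPA arrays, against 163, 197 and 162 in DMSO arrays (log2 1.09, adjusted p = 4.8e-06). TFDP2 rose by 0.56, E2F5 by 0.56 and CCND3 by 0.38; E2F5 and CCND3 were lost without DMSO replicate 2 or ATRA plus VPA replicate 2, E2F5 also without DMSO replicate 1 or ATRA plus VPA replicate 3 and with the mean over its probe sets, at 0.24 (adjusted p = 0.13).

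DNA replication counted 6 falls and 0 rises among 46 genes, with a median of -0.07, and the G2 and mitosis list 4 falls and 0 rises among 37, with a median of -0.12, against 4.87% falls and 6.73% rises over all genes. CDC7, the kinase that fires origins, had 696, 652 and 602 in ATRA plus VPA arrays, against 1113, 1076 and 1009 in DMSO arrays (log2 -0.71, adjusted p = 2e-06). POLE2, a subunit of DNA polymerase epsilon, fell by 0.54, and CCNA2, cyclin A2, by 0.48. MKI67, the proliferation marker Ki-67, had 1257, 1604 and 1599 in ATRA plus VPA arrays, against 1628, 1446 and 1473 in DMSO arrays (log2 -0.04, adjusted p = 0.91), and its groups overlapped. PLK1 changed by -0.48 (adjusted p = 0.071), and passed under 6 of 17 other settings, among them the replicate block and array weights. The mitosis falls dropped to 1 without DMSO replicate 1 or 3 or ATRA plus VPA replicate 2 or 3 and to 2 without DMSO replicate 2, with the compared arrays alone or after a second quantile normalization; the replication falls were 10 without DMSO 24 h replicate 1, which enters through the pooled spread.

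MYCN, the oncogene amplified in this line, had 5687, 6038 and 5864 in ATRA plus VPA arrays, against 7293, 7533 and 7246 in DMSO arrays, and fell by 0.33 (SE 0.07, adjusted p = 0.0014). All treated arrays lay below all DMSO arrays. The other probe sets of the gene, of lower signal, gave -0.80 and -0.91, and the mean over probe sets, -0.68, did not pass (adjusted p = 0.062). MAX, its partner, rose by 0.34, which did not hold with the mean of its probe sets, and MXI1, which competes with MYC proteins for MAX, rose by 0.59.

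Of 30 genes of ribosome biogenesis and RNA polymerase I 7 fell and 0 rose, against 4.87% and 6.73% of all genes, with a median of -0.23. After UBTF the largest were POLR3B, a subunit of RNA polymerase III, at -0.60, NOP56, a nucleolar box C/D protein, at -0.47, and POLR1C at -0.45; the falls were 3 without DMSO replicate 2 or ATRA plus VPA replicate 3. Of 35 splicing factors 8 fell and 0 rose, against the same shares of all genes, with a median of -0.17; the fit of the compared arrays alone called 4 falls. SRSF7 had 3929, 4617 and 4413 in ATRA plus VPA arrays, against 6724, 6197 and 6328 in DMSO arrays (log2 -0.57, SE 0.08, adjusted p = 4.7e-06). CLK1, the kinase of SR proteins, fell by 0.65, SRSF6 by 0.50 and SRSF5, whose call was lost without DMSO replicate 3 or ATRA plus VPA replicate 1 and in that fit, by 0.46. Against ATRA alone 11 of the splicing factors fell and 0 rose, against 4.84% and 7.13% of all genes.

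**Figure D4:**
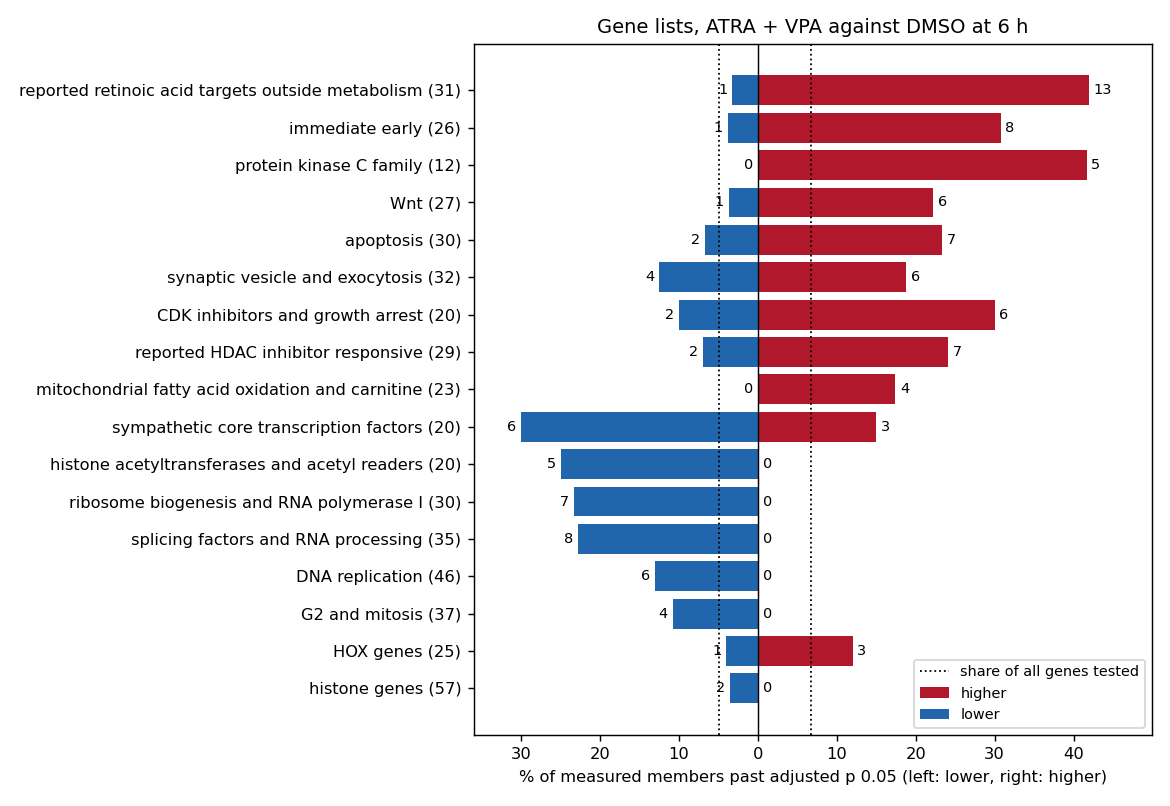
Share of the measured members (in brackets) of 17 gene lists that rose (red, to the right) or fell (blue, to the left) with ATRA plus VPA against DMSO at 6 h, with the number of genes at each bar. Dotted lines mark the shares of all genes tested, 6.73% and 4.87%. Reported retinoic acid targets (13 of 31) and the protein kinase C family (5 of 12) reach farthest right and sympathetic transcription factors (6 of 20) farthest left. The lists were chosen with earlier results of these data known.

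Of 20 measured transcription factors of the sympathetic core circuit 6 fell and 3 rose, against 4.87% and 6.73% of all genes; the rises were 1 without ATRA plus VPA replicate 1 or DMSO replicate 3. GATA3 had 1946, 1627 and 1409 in ATRA plus VPA arrays, against 3429, 3411 and 3123 in DMSO arrays (log2 -1.01, SE 0.11, adjusted p = 1.1e-07). ISL1, a LIM homeobox factor of sympathetic neurons, had 830, 685 and 622 in ATRA plus VPA arrays, against 1474, 1410 and 1381 in DMSO arrays (log2 -1.01, SE 0.08, adjusted p = 5e-10). Neither gene's groups overlapped, and replicate 1 was the highest treated array in each. PHOX2A, a homeobox factor of noradrenergic neurons, rose by 0.63, with 2768, 2647 and 2588 in ATRA plus VPA arrays, against 1581, 1782 and 1808 in DMSO arrays. LMO4 fell by 0.46, and was not called without DMSO replicate 2 or 3 or ATRA plus VPA replicate 2 or 3, with the replicate block or with the mean over its probe sets (-0.31).

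TH, tyrosine hydroxylase, had 216, 286 and 240.1 in ATRA plus VPA arrays, against 295, 235 and 248 in DMSO arrays (log2 -0.07, adjusted p = 0.93). DBH, which makes noradrenaline, had 1281, 1344 and 1316 in ATRA plus VPA arrays, against 1406, 1416 and 1522 in DMSO arrays (log2 -0.14, adjusted p = 0.54). Neither passed; the TH arrays overlapped, and the DBH arrays did not, all treated ones lying lower. Of 17 genes of catecholamine synthesis and transport 1 rose and 2 fell, against 6.73% and 4.87% of all genes. GCH1, the first enzyme of biopterin synthesis, rose by 0.55. PTS, which follows it, fell by 0.43, and SLC18A1, a vesicular monoamine transporter, fell by 0.51. SLC18A1 lost its call, leaving 1 fall, without any 1 DMSO array, and lost it also without ATRA plus VPA replicate 1.

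GAP43, a growth cone protein, had 2188, 2069 and 2010 in ATRA plus VPA arrays, against 2046, 2022 and 1993 in DMSO arrays (log2 0.05, adjusted p = 0.77). NEFM, the middle neurofilament, had 3368, 3331 and 3144 in ATRA plus VPA arrays, against 3032, 3291 and 3152 in DMSO arrays (log2 0.06, adjusted p = 0.72). Neither passed, and the groups of both genes overlapped. Of 33 genes of cytoskeleton and neurites 4 rose and 2 fell, against 6.73% and 4.87% of all genes. DPYSL4, a collapsin response mediator, rose by 0.86 and DCLK1, a doublecortin-like kinase, by 0.40. MAP2, the dendritic microtubule protein, fell by 0.40, but not when any 1 of the 6 arrays was left out, and the list's falls were 0 without DMSO replicate 1 or 2 or ATRA plus VPA replicate 1. Of 32 synaptic vesicle genes 6 rose and 4 fell, against the same shares of all genes. The rises were 3 without ATRA plus VPA replicate 1 or DMSO replicate 1. SYNGR3, a synaptogyrin, had 89.2, 64.4 and 63.0 in ATRA plus VPA arrays, against 21.3, 33.6 and 24.2 in DMSO arrays (log2 1.43, adjusted p = 7e-06), RAB3A, a GTPase of vesicle release, rose by 0.98, and SYN2, synapsin II, fell by 0.69. With a pseudocount of 32 SYNGR3 stood at 0.83, and with the mean over probe sets DPYSL4 stood at 0.36 and SYN2 at -0.40. Among 14 RET, GFRA and neurotrophin receptor genes RET alone passed, against 11.6% of all genes, and 2 passed without ATRA plus VPA replicate 2. Of 37 ion channel genes 1 fell, KCNK3 (-0.38), against 4.87% of all genes. Of 23 neuropeptide and granule genes 1 rose, CALCB (0.34), against 6.73% of all genes. Neither held when single arrays were left out, KCNK3 for each of the 6 arrays and CALCB for all but ATRA plus VPA replicate 1.

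Of 26 immediate early genes 8 rose and 1 fell, against 6.73% and 4.87% of all genes, with a median of 0.13. The rises were 5 without ATRA plus VPA replicate 1, and the fall was not called without any 1 of the 6 arrays. MAFF, a small MAF factor, had 366, 323 and 292 in ATRA plus VPA arrays, against 106, 119 and 113 in DMSO arrays (log2 1.53, SE 0.17, adjusted p = 1.2e-07). EGR1 had 602, 571 and 536 in ATRA plus VPA arrays, against 263, 247 and 239.8 in DMSO arrays (log2 1.19, SE 0.13, adjusted p = 2.1e-07). Neither gene's groups overlapped. Dimmer second probe sets gave 0.92 for MAFF and 0.41 for EGR1. Of 18 ERK feedback genes 3 rose and 4 fell, against the same shares of all genes. DUSP6, a phosphatase of ERK, rose by 0.97, whereas SPRY2, an inhibitor of receptor tyrosine kinase signalling, fell by 0.68 and DUSP10 by 0.56. Of 12 protein kinase C family genes 5 rose and 0 fell, against the same shares of all genes. After PRKCH the rises included PRKD2 (1.15), PRKCD (0.75) and PRKCI (0.71).

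Of 27 Wnt genes 6 rose and 1 fell, against 6.73% and 4.87% of all genes, with 3 rises without ATRA plus VPA replicate 1. FZD7, a frizzled receptor, had 249, 272 and 227 in ATRA plus VPA arrays, against 115, 118 and 96.8 in DMSO arrays (log2 1.18, adjusted p = 1.8e-07); FZD2 rose by 1.11 and DKK3, a dickkopf family protein, by 0.93. LGR5, a receptor for R-spondins, fell by 0.56, lost without DMSO replicate 1 or ATRA plus VPA replicate 1 and with the mean of probe sets. Of 19 Notch genes 2 rose, the ligand JAG2 (1.14) and the target HES1 (0.72), against 6.73% of all genes. Among 22 BMP and TGF-beta readouts SMAD7, an inhibitory SMAD, fell by 0.62, ID2 fell by 0.46, and SKIL rose by 0.80; SKIL was lost without DMSO replicate 2 or 3 or ATRA plus VPA replicate 2, and ID2 without DMSO replicate 1 or ATRA plus VPA replicate 1. The mean over probe sets gave 0.45 for SKIL and -0.24 for ID2.

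Of 24 genes of cell adhesion 5 rose and 2 fell, against 6.73% and 4.87% of all genes, with 3 rises without DMSO replicate 3. That list was built around CXADR after its response was known. EPB41L2, a membrane skeleton protein, rose by 1.09, PCDH9, a protocadherin, fell by 0.81 and UNC5C, a netrin receptor, by 0.67. Of 38 mesenchymal and matrix genes 4 rose and 0 fell, against 6.73% and 4.87% of all genes. SNAI1 rose by 0.90, FN1 by 0.76, COL5A1 by 0.63 and LOXL2, which was lost without DMSO replicate 1 or 2 or ATRA plus VPA replicate 3, by 0.53. With the mean over its probe sets, of which the others gave -0.04 and 0.08, LOXL2 stood at 0.19 (adjusted p = 0.09). EDNRB, an endothelin receptor of the neural crest, rose by 0.78 as the 1 of 9 Schwann and glial genes that passed. Further, 0 of 11 epithelial and 0 of 10 haematopoietic genes passed. These shares stand against 11.6% of all genes. The part of other cell types in these changes was not tested; the defining markers of Schwann and blood cells had means of at most 50 in both groups, as given above.

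Of 30 apoptosis genes 7 rose and 2 fell, against 6.73% and 4.87% of all genes. The rises were 3 without DMSO replicate 1 and 4 without DMSO replicate 3 or ATRA plus VPA replicate 2. APAF1, the core of the apoptosome, had 235, 158 and 151 in ATRA plus VPA arrays, against 75.1, 90.6 and 73.6 in DMSO arrays (log2 1.15, SE 0.12, adjusted p = 1.1e-07). TNFRSF10B, a death receptor for TRAIL, had 75.6, 68.7 and 48.1 in ATRA plus VPA arrays, against 30.7, 30.1 and 25.9 in DMSO arrays (log2 1.10, adjusted p = 7.9e-05). BCL2L1, which encodes the survival protein BCL-XL, fell by 0.88. The mean over probe sets gave 0.49 for APAF1 and 0.35 for TNFRSF10B, and with a pseudocount of 32 TNFRSF10B stood at 0.65. In this list 1 fall was left without DMSO replicate 1 or 2 or ATRA plus VPA replicate 2 or 3. Of 27 MHC class I and interferon genes 4 rose and 0 fell, against the same shares of all genes. IRF9 rose by 0.79, HLA-E by 0.78, IFIT1, which was lost without ATRA plus VPA replicate 1, by 0.69 and HLA-C by 0.43.

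Of 23 genes of mitochondrial fatty acid oxidation and carnitine 4 rose and 0 fell, against 6.73% and 4.87% of all genes. CRAT, carnitine acetyltransferase, had 112, 79.7 and 77.2 in ATRA plus VPA arrays, against 50.9, 51.5 and 56.0 in DMSO arrays (log2 0.73, adjusted p = 0.0015); ECI2 rose by 0.72, SLC25A20, the carnitine carrier, by 0.57, and CPT1A by 0.37, the last lost without DMSO replicate 1 or 3 or ATRA plus VPA replicate 1, with the replicate block, with the compared arrays alone and with the mean over its probe sets, at 0.16 (adjusted p = 0.31). Of 26 sterol and fatty acid synthesis genes 2 fell and 0 rose, against 4.87% and 6.73% of all genes. INSIG1 fell by 0.48 and IDI1 by 0.37. In the integrated stress response 2 of 27 rose and 1 fell, shares near the 6.73% and 4.87% of all genes: DDIT4, an mTOR inhibitor, rose by 0.75, GDF15 by 0.86, and MTHFD2, a mitochondrial folate enzyme, fell by 0.29 as the 1 of 15 glycine and one-carbon genes that passed, and not without DMSO replicate 1 or ATRA plus VPA replicate 3. The falls of the stress response were 3 without ATRA plus VPA replicate 1 and 2 without DMSO replicate 2 or DMSO 24 h replicate 1. MT2A rose by 0.49 as the 1 of 11 metallothionein genes that did, against 6.73% of all genes. Its call was lost without DMSO replicate 1 or ATRA plus VPA replicate 1.

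The change at 6 h was then set against the changes with ATRA plus VPA over DMSO at 24 h and 72 h, where 21.2% (13.5% up and 7.79% down) and 31.5% (14.9% up and 16.6% down) of genes passed. The effect differed from that at 6 h for 722 genes at 24 h, 6.05% of those tested (463 higher, 3.88%, and 259 lower, 2.17%, or 416 and 403 after a second quantile normalization), and for 2032 at 72 h, 17% (943 higher, 7.9%, and 1089 lower, 9.12%). These comparisons share the 6 h arrays, and the 24 h and 72 h values rest on later DMSO arrays; DMSO 24 h replicate 1 stood apart, with 218 genes at least 1 log2 unit below its group. Without that array 332 genes were higher and 348 lower at 24 h than at 6 h, and array weights gave 972 and 1044, so the balance between higher and lower effects turned. The mean log2 ratio of 3' to 5' control signal also differed over time, 0.39 ± 0.45, 0.97 ± 0.33 and 1.36 ± 0.07 with ATRA plus VPA at 6, 24 and 72 h (SD, n = 3 each), against 0.27 ± 0.09, 1.05 ± 0.26 and 1.06 ± 0.17 with DMSO (n = 3, 3 and 2); its part in these differences was not tested.

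**Figure D5:**
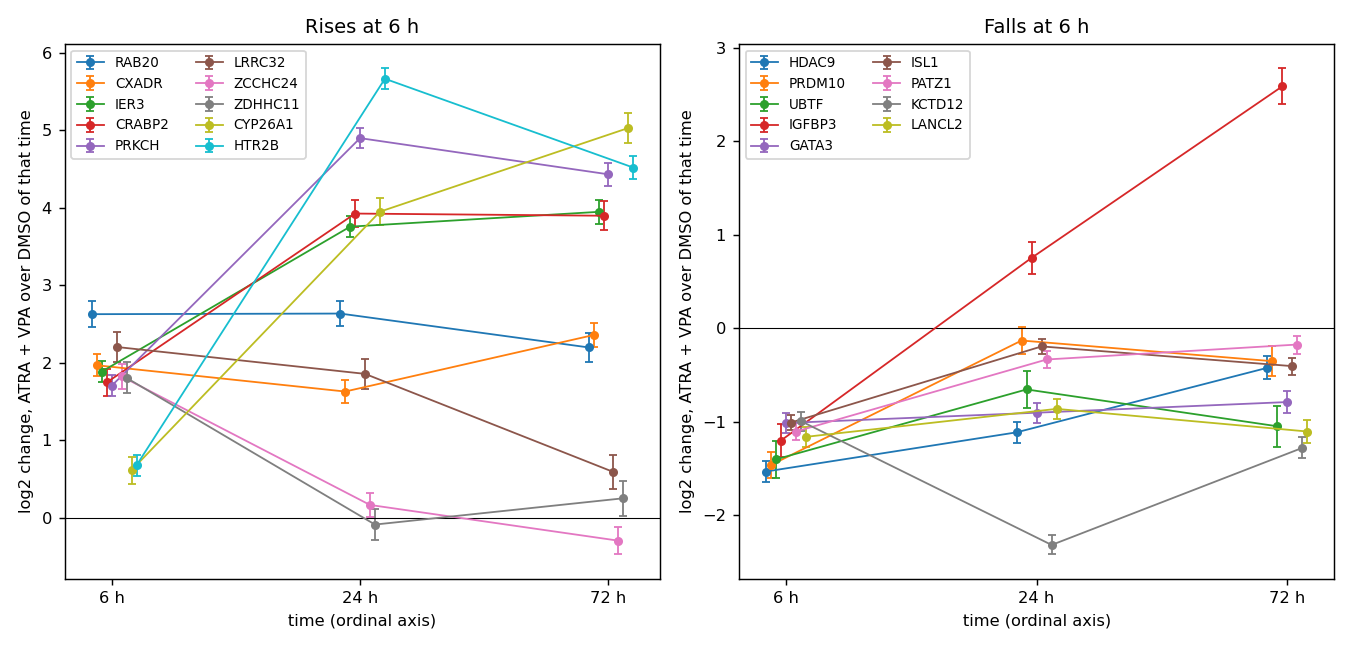
Log2 change of ATRA plus VPA over DMSO of the same time, with SE bars, at 6, 24 and 72 h (ordinal axis) for genes that rose at 6 h (left) and fell at 6 h (right). RAB20 stayed between 2.20 and 2.63, ZCCHC24 and ZDHHC11 were near 0 later, CYP26A1 and HTR2B were far higher later, and IGFBP3 turned from a fall into a rise.

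CYP26A1 averaged 366 with ATRA plus VPA at 24 h, against 23.0 with DMSO, and 749.5 at 72 h, against 22.0 with DMSO; its log2 change exceeded that at 6 h by 3.33 and 4.42. CYP26B1 exceeded its 6 h change by 2.69 at 24 h and 4.19 at 72 h, and RARB by 1.83 at 72 h. HTR2B exceeded it by 4.99 at 24 h, PRKCH by 3.19, CRABP2 by 2.18 and PTGIR, the prostacyclin receptor, by 2.97. CALCB, a calcitonin gene peptide, averaged 2403 with ATRA plus VPA at 72 h, against 24.4 with DMSO, after 35.6 with ATRA plus VPA and 27.9 with DMSO at 6 h. At 72 h GDF15 exceeded its 6 h change by 4.67, PRSS12 by 4.83 and STMN4, a stathmin of neurons, by 4.40.

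Some genes that passed at 6 h did not pass at 24 h. ZCCHC24 changed by 0.16 at 24 h (adjusted p = 0.54) and ZDHHC11 by -0.09 (adjusted p = 0.82), and the difference from 6 h passed for both (adjusted p = 9.1e-06 and 3.3e-05). PRDM10 and AP5S1, which had fallen at 6 h, changed by -0.13 and 0.06 at 24 h (adjusted p = 0.6 and 0.8). JAG2, STC2 and ICAM3, which rose at 6 h, lay below DMSO at 24 h, and their effect differed from that at 6 h by -1.65, -1.87 and -1.39; at 24 h JAG2 and ICAM3 passed as falls (adjusted p = 0.02 and 0.0083) and STC2 did not pass (adjusted p = 0.078). KCNG1 did not pass at 6 h, at 0.17 (adjusted p = 0.64), and changed by -1.26 at 24 h (adjusted p = 3e-07), a difference of -1.43. KCTD12 had a log2 change of -0.99 at 6 h and -2.31 at 24 h, and this difference passed (adjusted p = 1.9e-07).

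IGFBP3, which fell at 6 h, averaged 2178 with ATRA plus VPA at 72 h, against 361 with DMSO (log2 2.59, adjusted p = 7.8e-12). MKI67 fell by 1.21 at 72 h (adjusted p = 7e-11), and its effect there differed from that at 6 h (adjusted p = 1.6e-07). PLPPR4, FBN1, CRIP1, C1QL1 and PTGER3 were among the genes whose effect was lowest at 72 h relative to 6 h, by 2.44, 2.44, 2.27, 2.09 and 2.06. GATA3 fell by 0.90 at 24 h and 0.79 at 72 h, and these changes did not pass a test of difference from 6 h (adjusted p = 0.79 and 0.43). RAB20 and CXADR likewise passed no such test, with log2 changes of 2.20 and 2.36 at 72 h.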

How the data were processed

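The deposited table holds RMA intensities on a linear scale for 22930 probe sets on 35 arrays of an early-access human Affymetrix design; the authors' RMA step is named in the submitters' processing notes, and its software version is not given in the sources used here. Values ran from 9.48 to 26442, and 0 pairs of arrays were identical. Of the probe sets 19415 carried 1 gene symbol, 125 several, 2866 none and 524 were controls; the brightest probe set stood for each of 11940 genes, of which 4507 had more than 1. By gene ID 11874 genes matched the RefSeq table, and 0 symbols changed.

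Intensity plus a pseudocount of 1 was taken to log2, so folds of dim genes are understated. Arrays were grouped by their labels into 12 groups and entered 1 model in limma 3.58.1 (lmFit and eBayes, R 4.3.3), with contrasts for each comparison and two-sided p-values adjusted by Benjamini-Hochberg over all genes, threshold 0.05. The fit was tested on simulated data. Deviations of same-numbered ATRA plus VPA and DMSO arrays correlated at -0.21, -0.19 and 0.16, which does not settle whether replicate numbers pair the arrays. Alternatives were the replicate block, the compared arrays alone, the lowest 33.3% of genes left out, a pseudocount of 32, the mean of all probe sets, a second quantile normalization, a trended and robust prior, array weights and each array left out. Genes named are the 14 largest rises and falls among those whose arrays did not overlap, the 4 largest changes of each list, the 6 largest rises and falls of the other contrasts, and a set of retinoid, deacetylase and lineage genes; others are markers or are marked as chosen after their values were seen. The gene lists, the members and this rule were chosen with earlier results of these data known.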

Additional observations from a re-analysis of the deposited data

Results flagged for a closer look

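The effect of ATRA plus VPA over DMSO was tested between times by limma, and these results differed from their 6 h value; each number is the log2 effect at the later time minus that at 6 h. In all, 722 genes differed at 24 h and 2032 at 72 h. At 24 h the difference was 4.99 for HTR2B, 3.19 for PRKCH, 2.18 for CRABP2, 1.33 for PRDM10, 1.32 for AP5S1, 0.87 for RET, 0.68 for DBH, 0.51 for UBXN8, -1.04 for STON1 and -1.89 for ZDHHC11. STON1 was not called when any of 6 single arrays was left out, with differences of -1.04 to -0.84. At 72 h retinoid genes had differences of 4.42 for CYP26A1, 4.19 for CYP26B1, 1.83 for RARB, 1.45 for DHRS3 and 0.71 for TGM2. Signalling genes had 2.97 for DUSP6, 2.06 for IER3 and 1.41 for EGR1. Of the largest rises at 6 h, ARHGEF3 had 1.42, AQP3 1.15, TMC6 0.72, CORO1A -0.73, LRRC32 -1.61 and ZCCHC24 -2.12. Of the largest falls, IGFBP3 had 3.79, DEPTOR 1.23, PBLD 1.12, HDAC9 1.11 and PATZ1 0.93. MKI67 had -1.17 and GAP43 0.26. Calls at 72 h that rested on single arrays were those of GAP43 (any 1 of 10 arrays, with differences of 0.24 to 0.29), TGM2 (5 arrays, 0.61 to 0.66), CORO1A (DMSO 72 h replicate 2, -0.55) and TMC6 (DMSO 72 h replicate 1, 0.58).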

How the results depend on the processing

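Of 143 named genes with a call in ATRA plus VPA against DMSO at 6 h, 107 kept direction and call under all 17 alternatives, 36 lost the call under at least 1 and 0 reversed. The mean of all probe sets and the pseudocount moved single values most, for example CRAT to 0.48, DKK3 to 0.41, HES1 to 0.42, PCDH9 to -0.29, PPARD to 0.26 and STC2 to 0.79 with the mean, and EPB41L2 to 0.65, JAG2 to 0.75, PRKCD to 0.40 and GDF15 to 0.44 with a pseudocount of 32. Array weights moved the counts most, to 2431 genes against DMSO, 2416 against ATRA alone, 196 against VPA alone, 3 for the interaction, 549 for ATRA alone (263 higher and 286 lower), 2135 for VPA alone, 2016 for 24 h minus 6 h and 3326 for 72 h minus 6 h. The interaction also gave 1 gene with the lowest 33.3% of genes left out, 2 with a pseudocount of 32, 1 with the trended and robust prior, and 0 to 1 when single arrays were left out. ADD3, chosen after its values were seen, was the gene, or 1 of the genes, in each setting with a count above 0, at -0.70 to -0.63 (adjusted p 0.0019 to 0.047). Fitted on its own arrays alone, 24 h minus 6 h gave 299 genes. Leaving out single arrays gave 1010 to 1661 genes against DMSO, 995 to 1679 against ATRA alone, 49 to 87 against VPA alone, 109 to 241 for ATRA alone, 929 to 1599 for VPA alone, 555 to 955 for 24 h minus 6 h and 1469 to 2353 for 72 h minus 6 h; where DMSO at 72 h was left with 1 array, its spread was taken from the other groups. The replicate block gave 1362 genes against DMSO, 1370 against ATRA alone and 70 against VPA alone, within 1.5 times of the counts without it. Whether the replicate numbers pair the arrays is not known. In fits chosen after seeing the data, the 3'/5' ratio as a covariate gave 1506 genes against DMSO and the 6 h arrays alone 1742. With 3 arrays a group the median 95% interval of a change spanned 0.24 on either side, and signals near the lower quartile may be background.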
